A study of Mus musculus with 19 samples.

Results

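The effect of beta-glucan that is shared by both diets was measured on all 19 of the 19 liver libraries of the series, as the difference between the 9 libraries with beta-Glucan in the treatment label and the 10 without it, with the diet as an additive term. Genes were then asked for the same direction on each diet. WSD+beta-Glucan held 4 libraries, and WSD, CTRL+beta-Glucan and CTRL held 5 each, all from male C57Bl/J6 mice labelled as 24 weeks, with no genetic change or other agent named in any group. The series title gives the beta-glucan as dietary oat beta-glucan and places the study in fatty liver disease and the gut microbiota. WSD is an abbreviation that no label expands. The dose, the duration of feeding and the composition of both diets are not given in the sources used here. Nothing in the labels ties a library to a separate mouse, so the error behind each p is that among libraries, and part of it may be technical.

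Oat beta-glucan is a soluble cereal fibre that mammalian enzymes do not digest. It thickens the gut contents, binds bile acids and is fermented by gut bacteria to short-chain fatty acids, and beta-glucans of fungal walls are also ligands of the receptor dectin-1 on myeloid cells. The liver receives the portal blood from the gut, and its hepatocytes make bile acids, lipoproteins and the acute phase proteins of the plasma, while macrophages take up dying cells and microbial products. An effect common to both diets would be one that does not require the WSD background.

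Library depth ran from 17253823 to 23450232 estimated reads, with a median of 19481377, and 13594 genes passed the filter on low counts. Liver identity was clear, with 19 of 19 hepatocyte markers detected in every group and a summed level of 81800 to 206000 CPM (reads of a gene relative to the scaled library size). Diet took 54.8% of the variance of log2 CPM over the libraries, the additive beta-glucan term 2.92% and the diet-dependent part of the beta-glucan effect 4.07%, where 1 residual degree of freedom took 2.55%. The titles of 3 beta-glucan libraries stood outside the run of the others: WSD+beta-Glucan replicate 1 (titled 37) and CTRL+beta-Glucan replicates 1 and 2 (titled 39 and 40) carried the S numbers 2, 3 and 1, where the other 16 carried 6 to 20 and, in WSD replicate 1, again 2. The labels do not say what this marks. Against the 6 other beta-glucan libraries, with diet as a term, 57 genes were higher in these 3 (0.419% of those tested) and 37 lower (0.272%), by edgeR's quasi-likelihood test with an adjusted p under 0.05. Because all 3 belong to the beta-glucan groups, results that rest on them are given with all 19 libraries and with the other 16.

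Across both diets, 2 genes were lower with beta-glucan, Mmp12 and Elmo1, and 0 were higher at an adjusted p under 0.05 (edgeR's quasi-likelihood test with Benjamini-Hochberg adjustment). These 2 were 0.0147% of the genes tested. At an unadjusted p under 0.05 there were 1013 genes (7.45%), 490 higher (3.60%) and 523 lower (3.85%). Elmo1 was lower on each diet, whereas the fall of Mmp12 rested on WSD. DESeq2 called 26 genes (0.192%), 9 higher and 17 lower, and limma-voom called 62 (0.456%), 5 higher and 57 lower; both genes were among the calls of all 3 tools. Of the 26 genes of DESeq2, 25 had the same sign on both diets, against 39 of the 62 of limma-voom and 42.5% of all genes. A call in the additive fit favours equal signs, so these counts are no separate evidence of a shared effect. An edgeR unadjusted p under 0.05 on each diet, in the same direction, was held by 13 of the 26 and 8 of the 62, against 0.294% of all genes. An additive call on the same libraries also favours such p values, so these counts too are no separate evidence. With the 16 libraries, no gene passed edgeR's test, 1505 had an unadjusted p under 0.05 (10.9%), and the smallest adjusted p was 0.0698.

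Elmo1 (ENSMUSG00000041112), which encodes an adaptor that works with DOCK proteins to activate Rac during the engulfment of dying cells and cell migration, had 40.7% lower expression with beta-glucan (95% interval 29.6% to 50%). In CTRL the 5 libraries held 2.14, 1.65, 1.81, 1.54 and 2.01 CPM. In CTRL+beta-Glucan they held 1.01, 1.37, 1.32, 0.835 and 0.791 CPM. In WSD the values were 6.41, 7.02, 5.49, 6.68 and 7.77 CPM, and in WSD+beta-Glucan they were 4.17, 3.99, 4.72 and 3.28 CPM. The groups did not overlap on either diet, which 2 genes showed in the same direction over the whole table (0.0147%) and 3 in opposite directions (0.0221%). On WSD by itself 7.42% of genes had no overlap, and on CTRL 0.486%. For Elmo1 the WSD+beta-Glucan libraries stayed above all CTRL libraries. The additive log2 fold change was -0.75 ± 0.12 (SE), with an adjusted p of 0.0202 in edgeR. On WSD it was -0.72 (unadjusted p = 0.00022) and on CTRL -0.79 (unadjusted p = 0.000324). The edgeR adjusted p was 0.0553 on WSD and 0.55 on CTRL, so neither diet passed by itself. The difference between both effects had an unadjusted p of 0.772 in the same edgeR fit.

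The counts behind Elmo1 were low, at 26 to 39 estimated reads per CTRL library and 14 to 22 per CTRL+beta-Glucan library, against 127 to 191 in WSD and 76 to 109 in WSD+beta-Glucan. Summed over its transcripts, the deposited TPM (a level per transcript length) was 0.304 to 0.976 in CTRL and 0.165 to 0.281 in CTRL+beta-Glucan. It was 1.5 to 2.27 in WSD and 0.861 to 1.3 in WSD+beta-Glucan, so on this scale too the groups did not overlap. With the 16 libraries the additive value was -0.81 ± 0.14 (SE) with an adjusted p of 0.0698, and -0.74 on WSD and -0.91 on CTRL. An equal weighting of both diets, with all 19 libraries, gave -0.76 with an edgeR adjusted p of 0.0602. The call was also lost, at adjusted p values of 0.0525 to 0.0856, when any 1 of 8 libraries was left out: WSD+beta-Glucan replicate 1, 2 or 4, CTRL+beta-Glucan replicate 4, WSD replicate 2, 4 or 5, or CTRL replicate 5. An antisense gene, Gm32036, overlaps exons of Elmo1, and the strand setting of the counting is not given in the sources used here.

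Mmp12 (ENSMUSG00000049723), the macrophage elastase, showed the larger additive change, 59.9% lower (95% interval 47.1% to 69.6%). In WSD the libraries held 30.1, 50, 45.9, 42.5 and 46.1 CPM, and in WSD+beta-Glucan they held 18.5, 13.8, 15.8 and 10.3 CPM. In CTRL the values were 0.45, 0.731, 0.583, 0.473 and 1.08 CPM, and in CTRL+beta-Glucan they were 0.505, 0.31, 0.42, 0.649 and 0.692 CPM. The WSD groups stood well apart, and the CTRL groups overlapped. The additive log2 fold change was -1.32 ± 0.19 (SE), with an adjusted p of 0.0151 in edgeR. It was -1.56 on WSD (unadjusted p = 2.06e-08) and -0.34 on CTRL (unadjusted p = 0.327), and the difference had an unadjusted p of 0.00512. On CTRL it rested on 5 to 21 reads per library. Leaving out WSD+beta-Glucan replicate 2 or 4, or WSD replicate 2, 4 or 5, ended the call (adjusted p 0.0539 to 0.0732). An equal weighting of both diets gave -0.95 with an edgeR adjusted p of 0.201, and the 16 libraries gave -1.45 ± 0.22 (SE) with 0.0698. Exons of Mmp1b overlap those of Mmp12 on the other strand.

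Both genes lie on the forward strand of GRCm38, the build of the annotation used for names. Of all Elmo1 reads, 97.7% were assigned to the transcript Elmo1-201, which spans chr13:20090619-20608353, and 1.7% to a retained-intron transcript with its start at 20472726. The Mmp12 reads of WSD went mostly (72.7%) to a transcript at chr9:7347406-7358888 annotated as a target of nonsense-mediated decay, with 16.6% on a protein-coding one that starts upstream at 7344397. In WSD+beta-Glucan these shares were 86.8% and 0.0%. The shares are of estimated reads pooled over the libraries of a group, with no spread among libraries. A change of transcript with beta-glucan was not tested. In CTRL 92.1% of the few reads lay on a retained-intron transcript, and in CTRL+beta-Glucan 92.0%, so most CTRL reads of Mmp12 were assigned to a transcript with no protein product. The promoters next to the transcripts with most reads are shown because the 2 genes share a direction; the windows hold 250 bases before the RefSeq start and the first 30 bases from it. Capitals mark every match, on either strand, to TATAAA (the TATA box), TGANTCA (the AP-1 site), GGGCGG (the GC box) or GAGGAAGT (a PU.1 core).
Elmo1 promoter, chr13:20090257-20090536, forward strand, RefSeq on GRCm38.p6: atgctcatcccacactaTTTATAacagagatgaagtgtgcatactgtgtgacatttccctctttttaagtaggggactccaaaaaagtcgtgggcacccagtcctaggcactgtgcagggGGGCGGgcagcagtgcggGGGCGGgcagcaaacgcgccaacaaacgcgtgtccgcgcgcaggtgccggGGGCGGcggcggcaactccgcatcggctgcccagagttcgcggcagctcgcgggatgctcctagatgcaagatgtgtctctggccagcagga
Mmp12 promoter, chr9:7347124-7347403, forward strand, RefSeq on GRCm38.p6: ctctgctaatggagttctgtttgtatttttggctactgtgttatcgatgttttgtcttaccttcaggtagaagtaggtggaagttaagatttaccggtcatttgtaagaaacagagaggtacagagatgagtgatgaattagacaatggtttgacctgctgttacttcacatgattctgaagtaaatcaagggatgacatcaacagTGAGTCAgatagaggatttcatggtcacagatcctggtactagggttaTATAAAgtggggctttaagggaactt
The Elmo1 window held 3 matches to the GC box and 1 to TATAAA, and the Mmp12 window 1 to the AP-1 site and 1 to TATAAA. Over 32851 promoter windows of this length, 34.7% held the GC box, 13.1% TATAAA, 7.46% the AP-1 site and 2.82% the PU.1 core. The 2 windows shared only the letters TATAAA, and the matches overlapped no other match. In Elmo1 they lay on the reverse strand near the upstream end of the window. In Mmp12 they lay on the forward strand, within the 30 bases from the RefSeq start and before the transcript start at 7347406. Matches were counted at any position, so a TATA box shared by both genes was not shown.

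**Figure D1:**
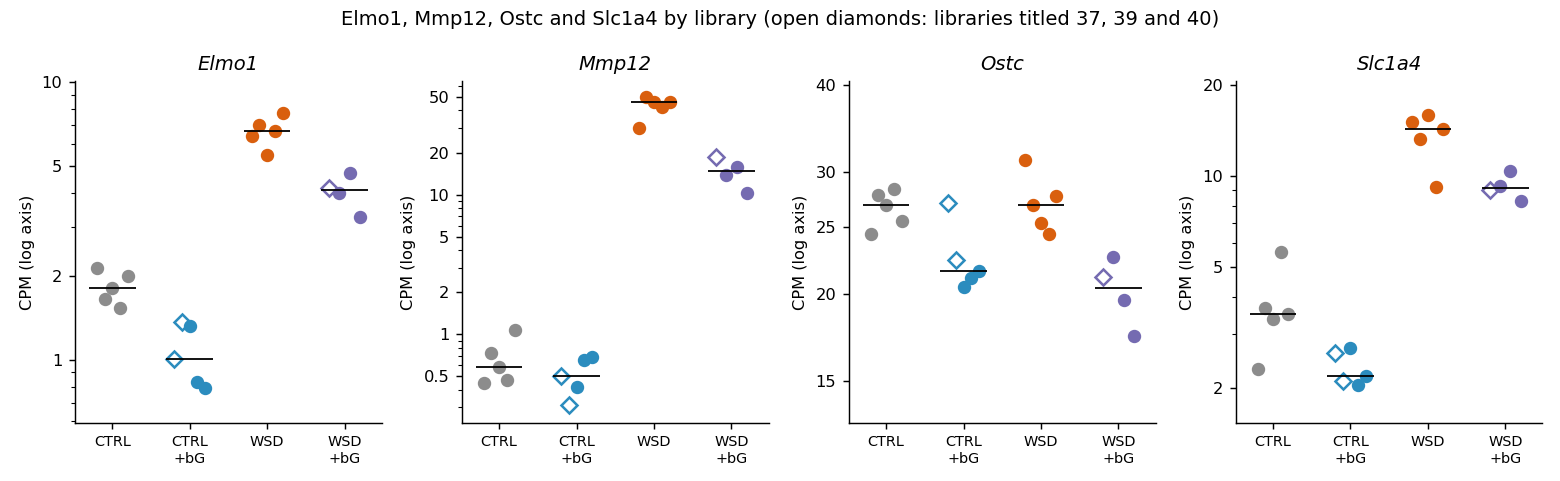
CPM per library on log axes for Elmo1, Mmp12, Ostc and Slc1a4 in CTRL, CTRL+bG (CTRL+beta-Glucan), WSD and WSD+bG (WSD+beta-Glucan), 1 point per library. Bars are medians and open diamonds are the libraries titled 37, 39 and 40. Elmo1 groups do not overlap on either diet, while Mmp12 separates on WSD and overlaps on CTRL.

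Levels of macrophage markers moved with diet and, on WSD, with beta-glucan. The 24 monocyte and macrophage markers, all detected in every group, summed to 872 to 1050 CPM in WSD and 506 to 609 CPM in WSD+beta-Glucan, but to 62.7 to 166 CPM in CTRL and 58.1 to 198 CPM in CTRL+beta-Glucan. The sums were thus lower with beta-glucan on WSD and overlapped on CTRL. With all libraries the median log2 fold change of these markers on CTRL was 0.162, where Elmo1 had -0.79. Without the 3 libraries the marker median on CTRL was -0.341, and Elmo1 had -0.91. The part of these markers in the results for Elmo1 and Mmp12 was not tested. In bulk tissue fewer cells of a type cannot be told apart from less RNA per cell. Of 24 genes of the engulfment pathway, written down after the result for Elmo1 was seen, 20 were tested. Apart from Elmo1 itself, which was not on that list, 1 member had an unadjusted p under 0.05, Elmo2 at -0.23 (1 of 20, against 7.45% of all genes), and 5 of 20 had the same sign on both diets, against 42.5%. Its paralog Elmo3 went the other way, at 0.11, with 0.17 on WSD and 0.07 on CTRL. Over the 16 libraries Elmo2 had -0.33, with -0.36 on WSD and -0.30 on CTRL, each with an edgeR unadjusted p under 0.05. Such a p on each diet in the same direction was held by 0.682% of all genes there. Elmo2 had an edgeR adjusted p of 0.139 in that additive fit, and the rest of the list was not counted with the 16 libraries.

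No gene passed a test that asks for an effect on each diet by itself (edgeR, the larger of both p-values, set to 1 where signs differ; 0% of those tested). The smallest such p was 0.000324, that of Elmo1. At an unadjusted p under 0.05 on each diet, 40 genes moved in the same direction (0.294%), 23 higher (0.169%) and 17 lower (0.125%), and 90 moved in opposite directions (0.662%). Among these 90, 61 were lower on WSD and higher on CTRL (0.449%) and 29 the reverse (0.213%).

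The 6 genes with the smallest unadjusted p among those higher with beta-glucan did not pass the additive test of edgeR. Tm6sf2, which takes part in loading lipid onto very-low-density lipoproteins in hepatocytes, held 17.7 to 22.9 CPM in WSD and 25.9 to 32.6 CPM in WSD+beta-Glucan. In CTRL it held 33.7 to 44.8 CPM, and in CTRL+beta-Glucan 44.4 to 51.6 CPM, so the groups separated on WSD and overlapped on CTRL. Its additive log2 fold change was 0.35 ± 0.07 (SE), with an edgeR adjusted p of 0.248; the WSD effect by itself, 0.52, passed (adjusted p = 0.0261), and the CTRL effect was 0.20 (unadjusted p = 0.0411). Rdh16f2, of the retinol dehydrogenase family, had 0.69 ± 0.15 (SE), Csrp3, a LIM-domain protein known from muscle, 0.56 ± 0.13 (SE), and Cpsf4l, related to a factor of mRNA 3' end formation, 0.43 ± 0.09 (SE). Odf3b had 0.41 ± 0.09 (SE) and Tmie, a channel component known from hair cells, 0.30 ± 0.07 (SE). The edgeR adjusted p values of these 6 lay between 0.248 and 0.324. DESeq2 called all 6 in its additive fit (adjusted p 0.0114 to 0.0374). limma-voom called Tm6sf2, Cpsf4l, Tmie and Odf3b (adjusted p 0.0345 to 0.0471). Odf3b was the one of the 6 that separated on CTRL, at 8.81 to 12.8 CPM without and 13.5 to 18.3 CPM with beta-glucan, and exons of Tmie overlap those of Als2cl on the other strand.

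Genes with the smallest p among those lower with beta-glucan included Ostc, a subunit of the oligosaccharyltransferase that N-glycosylates proteins in the endoplasmic reticulum. Ostc held 24.4 to 31.2 CPM in WSD and 17.4 to 22.6 CPM in WSD+beta-Glucan. In CTRL it held 24.4 to 28.3 CPM, and in CTRL+beta-Glucan 27.1, 22.4, 20.5, 21.1 and 21.6 CPM. The 1 overlapping value, 27.1 CPM, came from the library titled 39. Over all 19 libraries its log2 fold change was -0.33 ± 0.07 (SE), with an edgeR adjusted p of 0.248, and with the 16 libraries -0.39 ± 0.07 (SE) with 0.0698. With all 19, DESeq2 and limma-voom called Ostc (adjusted p 0.0104 and 0.026). Leaving out the library titled 39 removes the overlap on CTRL by construction, so this says nothing further about Ostc.

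Slc1a4, a transporter of serine, alanine and other neutral amino acids, had an additive log2 fold change of -0.61 ± 0.13 (SE), with -0.56 on WSD and -0.67 on CTRL. It held 2.31 to 5.62 CPM in CTRL and 2.04 to 2.7 CPM in CTRL+beta-Glucan, with 1 CTRL library inside the treated range. P4ha1, a subunit of the prolyl hydroxylase that matures collagen, had -0.52 ± 0.12 (SE), and Rcan1, an inhibitor of calcineurin, -0.37 ± 0.08 (SE). Rcan1 separated on CTRL, at 15.4 to 23 CPM without and 11.3 to 14.1 CPM with beta-glucan, and overlapped on WSD. Sprr1a, a cross-linked envelope protein of epithelia, had -1.62 ± 0.36 (SE) and Parvg, an adhesion adaptor of blood cells, -0.72 ± 0.18 (SE). For Sprr1a the CTRL diet gave no measure of the effect, since 9 of its 10 libraries held 0 reads and the other 1. The edgeR adjusted p values of Slc1a4, P4ha1, Rcan1, Sprr1a and Parvg were 0.248 to 0.393. DESeq2 called Slc1a4, P4ha1, Rcan1 and Parvg (adjusted p 0.0114 to 0.0415). limma-voom called Sprr1a and Parvg (adjusted p 0.0233 and 0.00978). Dlg3, a synaptic and junctional scaffold chosen after its values were seen, was the other gene with no overlap on either diet. It held 15.7 to 17.1 CPM in CTRL and 17.3 to 20 CPM in CTRL+beta-Glucan, and 11.8 to 12.8 CPM in WSD against 13.2 to 16.5 CPM in WSD+beta-Glucan. Its log2 fold change was 0.21 ± 0.05 (SE), with an edgeR adjusted p of 0.324.

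**Figure D2:**
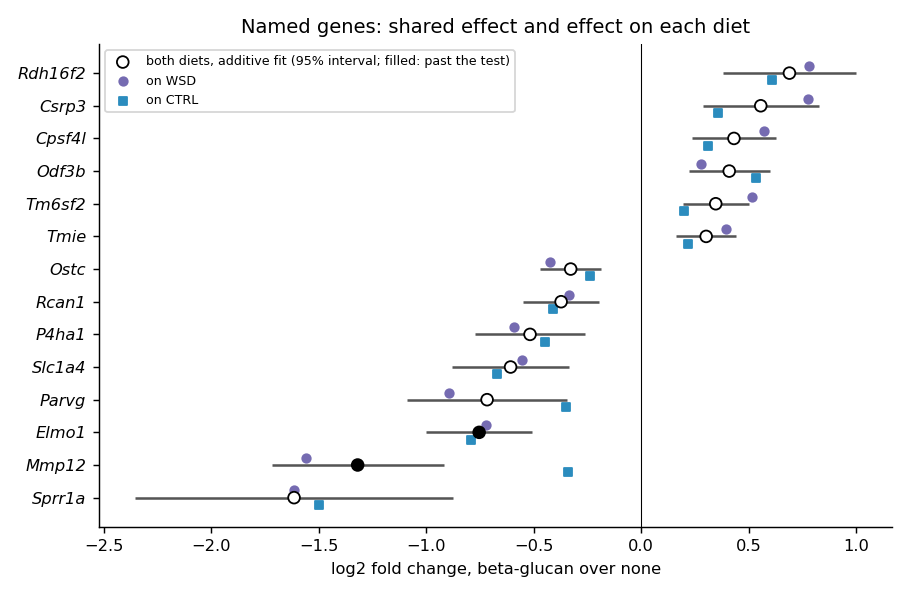
Log2 fold change of beta-glucan over none for the 14 genes named by rule (x axis). Circles with bars are the additive fit and its 95% interval, filled where the test was passed, and coloured points are the effects on WSD and on CTRL. Values on both diets lie close together for Elmo1 (-0.72 and -0.79) and far apart for Mmp12 (-1.56 and -0.34).

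Most genes moved little. The median absolute additive log2 fold change was 0.0857, with a median SE of 0.106. In the model of group means it was 0.156 on WSD, 0.118 on CTRL and 0.373 for WSD against CTRL without beta-glucan. Those contrasts use fewer libraries than the additive fit. The 95% interval of the additive effect stayed within 2-fold in both directions for 12507 genes (92%) and within 1.5-fold for 10346 (76.1%). Shared changes larger than these bounds lay outside the intervals of those genes.

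Effects on both diets ran in opposite directions more often than in the same direction when all libraries were used. The signs matched for 42.5% of genes, and across genes the effects on WSD and on CTRL had a Pearson correlation of -0.17 and a Spearman correlation of -0.2, as a description over 13594 genes, which are not independent. Both contrasts have no library in common. WSD+beta-Glucan against WSD gave 12 genes higher (0.0883%) and 41 lower (0.302%), together 0.39%, and 18 of these 53 had the same sign on CTRL (34%), 1 of them with an unadjusted p under 0.05 there. CTRL+beta-Glucan against CTRL gave 1 gene (0.00736%), the ephrin receptor Epha2, at 0.89 on CTRL (edgeR adjusted p = 0.0284) and -0.18 on WSD. These counts leaned on single libraries: the WSD calls numbered 2 without WSD+beta-Glucan replicate 1, 2 or 4 or WSD replicate 5, and 3 without WSD replicate 1 or 2. They numbered 33 without WSD replicate 3, 85 without CTRL+beta-Glucan replicate 1, 97 without CTRL replicate 1 and 184 without CTRL+beta-Glucan replicate 5. The CTRL count was 0 to 2 when 1 library was left out. Opposite-direction genes numbered 274 without CTRL+beta-Glucan replicate 5, 191 without CTRL replicate 1, 60 without WSD replicate 1 and 51 without WSD+beta-Glucan replicate 4. Same-direction genes numbered 24 to 54, fewest without CTRL+beta-Glucan replicate 5.

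With the 16 libraries the balance was different. Genes with an unadjusted p under 0.05 on each diet numbered 94 in the same direction (0.682%), 44 higher and 50 lower, and 46 in opposite directions (0.334%). The signs matched for 49.5% of genes, the correlations were -0.0625 (Pearson) and 0.00289 (Spearman), and 32 of the 47 genes called on WSD (0.341%) had the same sign on CTRL (68.1%). Of the 40 same-direction genes found with all libraries, 19 were among the 94. No gene passed the test of both diets in either case.

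**Figure D3:**
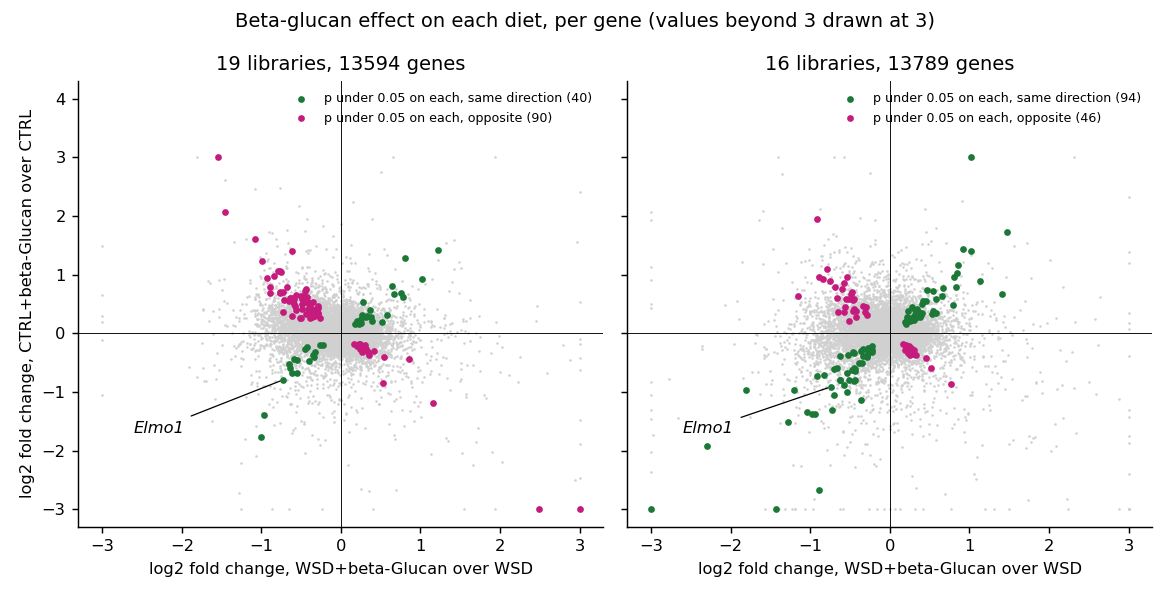
Log2 fold change of beta-glucan on WSD (x axis) against that on CTRL (y axis), 1 point per gene, with all 19 libraries (left) and the 16 without the libraries titled 37, 39 and 40 (right). Coloured genes have an unadjusted p under 0.05 on each diet. The left panel holds 40 genes in the same direction and 90 in opposite directions, the right panel 94 and 46.

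Genes whose shared change depended on these 3 libraries included acute phase proteins and enzymes of lipid oxidation, shown here with genes chosen after their values were seen. Saa4, the constitutive serum amyloid A of the liver, held 142 to 190 CPM in CTRL. In CTRL+beta-Glucan it held 265 and 196 CPM in the libraries titled 39 and 40 and 96.3, 113 and 104 CPM in the others. In WSD it held 208 to 330 CPM, and in WSD+beta-Glucan 467 CPM in the library titled 37 against 211, 150 and 180 CPM. The other beta-glucan libraries on CTRL lay below every CTRL library, and the 3 singled out by title lay above every CTRL library or every WSD library. Saa4 had an additive log2 fold change of 0.00 with all libraries and -0.52 ± 0.11 (SE, edgeR adjusted p = 0.0947) with the 16.

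A split by title within CTRL+beta-Glucan also appeared in Orm1, an orosomucoid of plasma with close paralogs between which reads may be divided. It held 1599 and 1018 CPM in the libraries titled 39 and 40, 413, 384 and 427 CPM in the other CTRL+beta-Glucan libraries, and 637 to 1213 CPM in CTRL. Unlike for Saa4, the library titled 40 thus lay inside the CTRL range. Cyp2c70, the hydroxylase that makes muricholic acids in mouse bile acid synthesis, held 290 and 186 CPM in the libraries titled 39 and 40 and 57.1, 89.0 and 55.6 CPM in the others. It held 193 CPM in the library titled 37 against 92.3, 69.5 and 67.4 CPM, with 82.4 to 130 CPM in CTRL and 112 to 189 CPM in WSD. Its additive log2 fold change was -0.02 ± 0.30 (SE) with all libraries and -0.78 ± 0.14 (SE, edgeR adjusted p = 0.0802) with the 16.

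Pdk4, the kinase that shuts pyruvate out of oxidation, and Cpt1b, a carnitine palmitoyltransferase, showed the reverse order. Pdk4 held 10.1 and 14.1 CPM in the libraries titled 39 and 40 and 61.1, 71.9 and 126 CPM in the other CTRL+beta-Glucan libraries, with 15.5 to 49.6 CPM in CTRL. On WSD it held 10.3 CPM in the library titled 37 and 21.2, 29.5 and 24.5 CPM in the others, with 9.26 to 20.1 CPM in WSD. Cpt1b held 9.31 and 7.7 CPM against 27.6, 14.8 and 17.9 CPM on CTRL, and 8.23 CPM against 21.7, 30.3 and 17.6 CPM on WSD. Exons of Cpt1b overlap those of Gm44502 on the same strand, so reads may be divided between them. With the 16 libraries the additive log2 fold change was 1.02 ± 0.23 (SE) for Pdk4 and 0.58 ± 0.13 (SE) for Cpt1b, with edgeR adjusted p values of 0.135 and 0.117. With all 19 it was 0.59 ± 0.38 (SE) and 0.27 ± 0.21 (SE). The library titles and the beta-glucan effect cannot be told apart within these 3 libraries, since all 3 carry the beta-Glucan label.

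**Figure D4:**
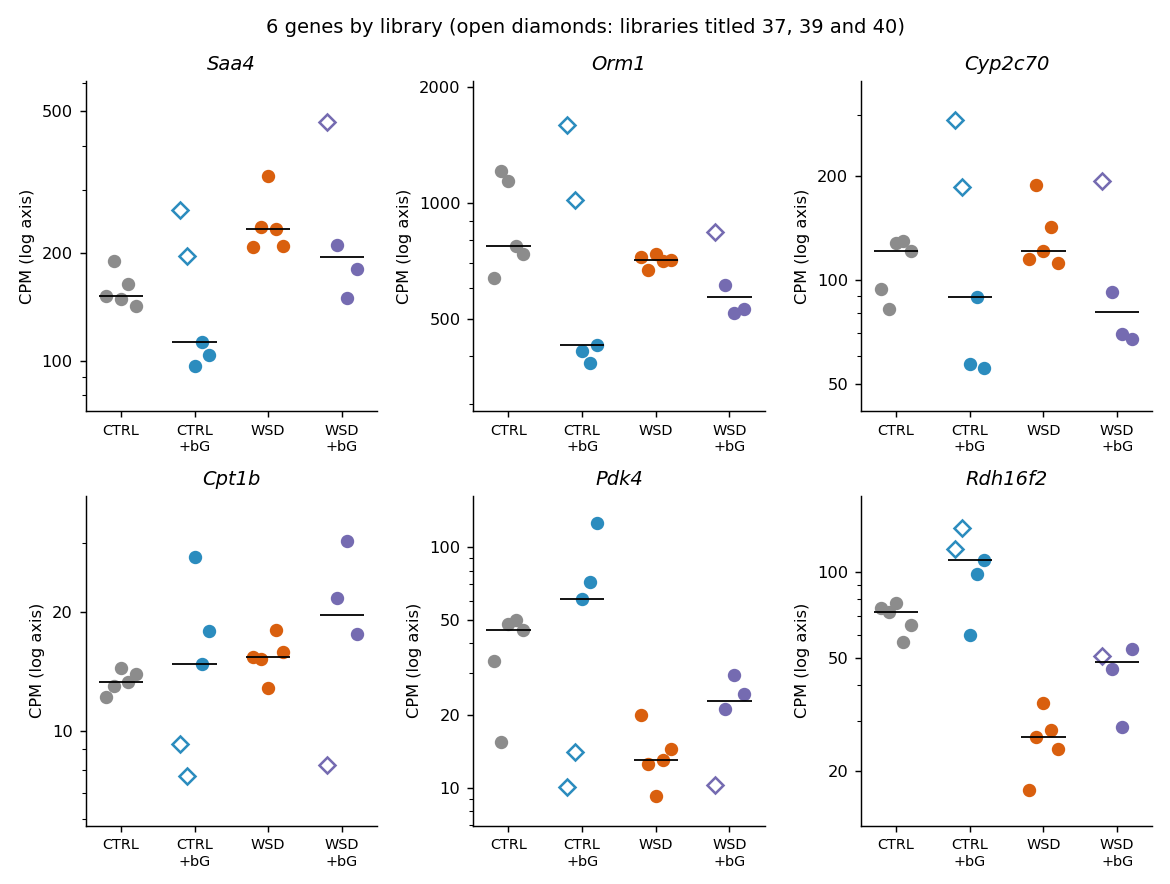
CPM per library on log axes for 6 genes in the 4 groups, with bG for beta-Glucan, bars for medians and open diamonds for the libraries titled 37, 39 and 40. The diamonds are the highest beta-glucan libraries of their diet in Saa4, Orm1 and Cyp2c70 and the lowest in Cpt1b and Pdk4. In Rdh16f2 they mix with the others on WSD and are the highest beta-glucan libraries on CTRL.

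Of 45 gene lists, written with earlier results of these data known, 1 had a member past the additive threshold: Mmp12 in the list of lipid-associated macrophage genes. Over all genes the median additive log2 fold change was 0.00363. Counts of members with the same sign on both diets are to be read against 42.5% of all genes with 19 libraries and 49.5% with 16. The lists are described by their counts of unadjusted p under 0.05, to be read against 3.60% higher and 3.85% lower with 19 libraries and 4.66% higher and 6.26% lower with 16. With 19 libraries the shares of all genes were 7.69% higher and 7.89% lower on WSD (15.6% together), and 2.86% higher and 2.84% lower on CTRL (5.7% together). For the difference between diets they were 6.9% higher and 6.82% lower on WSD relative to CTRL (13.7% together). Where the libraries left out of the 16 differ from the other beta-glucan libraries in a list, leaving them out moves that list by construction.

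Acute phase genes, the plasma proteins that hepatocytes make in inflammation, had medians of -0.211 on WSD and -0.143 on CTRL with all libraries, and 0 of 24 had an additive unadjusted p under 0.05 in either direction. Over the 16 libraries the medians were -0.398 and -0.624, and 19 of 24 were lower by that measure. On CTRL 18 of 24 were lower, where 3.52% of all genes were. Orm1, Orm3, Hp, Hpx, Saa3 and Saa4 were lower on both diets at an unadjusted p under 0.05. Haptoglobin (Hp), the haemoglobin scavenger, had -0.44 on WSD and -0.64 on CTRL, and hemopexin (Hpx), the haem scavenger, -0.45 and -0.82. The libraries left out exceeded the other beta-glucan libraries by log2 fold changes of 1.23 (Saa4), 1.31 (Orm1) and 1.03 (Hpx). Leaving them out lowers the beta-glucan side of such genes by construction. The counts over the 16 libraries are thus no separate evidence of a shared fall. Saa1, an inducible serum amyloid A, held 28.9, 487, 3495, 1686 and 1252 CPM in CTRL. In CTRL+beta-Glucan it held 1396, 192, 9.37, 17.5 and 18.5 CPM. The CTRL groups overlapped, and Saa1 and its paralog Saa2 may share reads. Neutrophil markers also varied on CTRL, with sums of 14.1 to 364 CPM without and 6.77 to 126 CPM with beta-glucan over 14 markers, of which Camp was at 0 in CTRL. Their part in the result was not tested.

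Genes of the integrated and endoplasmic reticulum stress responses, which slow translation and enlarge the folding machinery, had negative medians on both diets in either set. With all libraries 12 of 24 had the same sign on both diets, against 42.5% of all genes, 9 of 24 had an additive unadjusted p under 0.05 and were lower, 0 were higher, and the medians were -0.285 on WSD and -0.131 on CTRL. In the 16 libraries 18 of 24 had the same sign, against 49.5% of all genes, and 14 were lower, with medians of -0.295 and -0.308. There the chaperone Hspa5 (BiP) had -0.31 on WSD and -0.63 on CTRL, Manf -0.65 and -0.87, Sdf2l1 -0.82 and -1.24, and Creld2 -0.66 and -0.59. Creld2 was the 1 member with the same sign and an unadjusted p under 0.05 on each diet. Other members had opposite signs there: Gdf15, a stress-induced hormone, had -0.85 on WSD and 0.92 on CTRL, both with an unadjusted p under 0.05, the transcription factor Atf3 had -0.94 and 0.62, and the hormone Fgf21 -0.44 and 0.96.

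Fatty acid oxidation and PPAR alpha target genes, which run beta-oxidation and ketone production, had a median of 0.357 on WSD, where 14 of 28 were higher and 1 lower at an unadjusted p under 0.05. On CTRL the median was -0.0868 with all libraries, and 6 of 28 had the same sign on both diets. Without these 3 libraries the CTRL median was 0.071, 20 of 28 had the same sign, and 13 were higher in the additive fit against 1 before. Acot1, an acyl-CoA thioesterase with close paralogs, had 1.41 on WSD and 0.67 on CTRL there. Vnn1, the pantetheinase, had 0.27 and 0.32, and Cpt1a, the gate of mitochondrial fatty acid import, 0.58 and 0.07.

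Cholesterol biosynthesis and SREBP2 target genes gave the opposite dependence. With all libraries 21 of 25 had the same sign on both diets, with medians of 0.22 on WSD and 0.138 on CTRL, and 6 were higher at an additive unadjusted p under 0.05. Over the other 16 libraries 9 of 25 had the same sign, and the CTRL median was -0.0879. Sqle, the squalene epoxidase, held 18.5 and 24.3 CPM in the libraries titled 39 and 40, 6.07, 11 and 8.21 CPM in the other CTRL+beta-Glucan libraries, and 5.67 to 14.2 CPM in CTRL. Complement and coagulation genes had a median on CTRL of 0.0244 with all libraries and -0.176 with the 16, where 32 of 32 had a negative sign, against 51.9% of all genes, and 6 were lower at an unadjusted p under 0.05, against 3.52%.

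Lipid-associated macrophage genes, which mark macrophages that take up lipid in fatty liver and fat tissue, had medians of -0.959 on WSD and 0.121 on CTRL, with 15 of 19 lower on WSD and 1 higher on CTRL at an unadjusted p under 0.05. Without the 3 libraries the medians were -1.01 and -0.0705, and 13 of 19 had the same sign, against 6 with all libraries. Trem2, their lipid-sensing receptor, held 20.5 to 33.1 CPM in WSD and 4.46 to 13.9 CPM in WSD+beta-Glucan. It held 0.206 to 0.619 CPM in CTRL and 0.247 to 1.12 CPM in CTRL+beta-Glucan, so it separated on WSD and overlapped on CTRL. Its log2 fold change was -1.46 on WSD and 0.15 on CTRL, and that of Gpnmb, a lysosomal glycoprotein of the same cells, -1.53 and 0.92. For Ccl2, the chemokine that draws monocytes, it was -1.43 and 0.12. On CTRL without the 3 libraries the value of Trem2 was -0.53, that of Gpnmb 0.57 and that of Ccl2 0.22, so the sign of Trem2 turned; its additive value was then -1.25 with an edgeR adjusted p of 0.0947. With all libraries their unadjusted p for the difference between diets was 0.0171, 0.036 and 0.0109, and 0 of the 3 passed adjustment, whereas all 3 passed on WSD (edgeR adjusted p of 0.0276, 0.0475 and 0.0261).

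Monocyte and macrophage markers had a median of -0.796 on WSD, where 20 of 24 had an unadjusted p under 0.05, and of 0.162 on CTRL with all libraries. On CTRL 0 of 24 had such a p. Without the 3 libraries the CTRL median was -0.341, 20 of 24 had the same sign on both diets, and 17 were lower in the additive fit. Itgam (CD11b), Fcgr1 and Fcgr3, the Fc receptors, had an unadjusted p under 0.05 on each diet there, with CTRL values of -0.97, -0.73 and -1.05. The list of microbial sensing and beta-glucan receptors had medians of -0.639 on WSD and 0.0453 on CTRL, with 9 of 28 of the same sign and 9 lower in the additive fit. Without the 3 libraries the CTRL median was -0.0701, 16 of 28 had the same sign, against 49.5% of all genes, and 13 were lower. Clec7a, which encodes dectin-1, held 15.4 to 27.5 CPM in WSD and 10.2 to 11.7 CPM in WSD+beta-Glucan. It held 0.296 to 1.63 CPM in CTRL and 0.495 to 2.16 CPM in CTRL+beta-Glucan, which overlapped. Its log2 fold change was -0.99 on WSD and 0.32 on CTRL, with an additive edgeR adjusted p of 0.644.

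Interferon-stimulated genes and the antigen presentation genes of MHC class II had opposite medians on both diets in either set. The 38 interferon-stimulated genes had -0.145 on WSD and 0.312 on CTRL, with 0 of 38 negative on CTRL, against 49.2% of all genes, and 10 of the same sign, against 42.5%. Among the 16 libraries these were -0.229 and 0.354, with 15 of 38 higher on CTRL at an unadjusted p under 0.05, where 2.98% of all genes were. The 10 MHC class II genes had -0.799 and 0.396 with all libraries and -0.736 and 0.134 with the 16. One gene passed the test of the difference between both effects (0.00736%), Unc93b1, which carries nucleic-acid-sensing Toll-like receptors to endosomes. It had -0.50 on WSD and 0.26 on CTRL, with an edgeR adjusted p of 0.0366 for the difference. It held 62.9 to 72.7 CPM in WSD and 43.2 to 53.7 CPM in WSD+beta-Glucan, against 25.0 to 32.3 CPM in CTRL and 32.3 to 38.4 CPM in CTRL+beta-Glucan. This count was 81 without CTRL+beta-Glucan replicate 5 and 2 without CTRL replicate 3. It was 1 without WSD+beta-Glucan replicate 3, CTRL+beta-Glucan replicate 2 or WSD replicate 4, and 0 without any other single library.

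**Figure D5:**
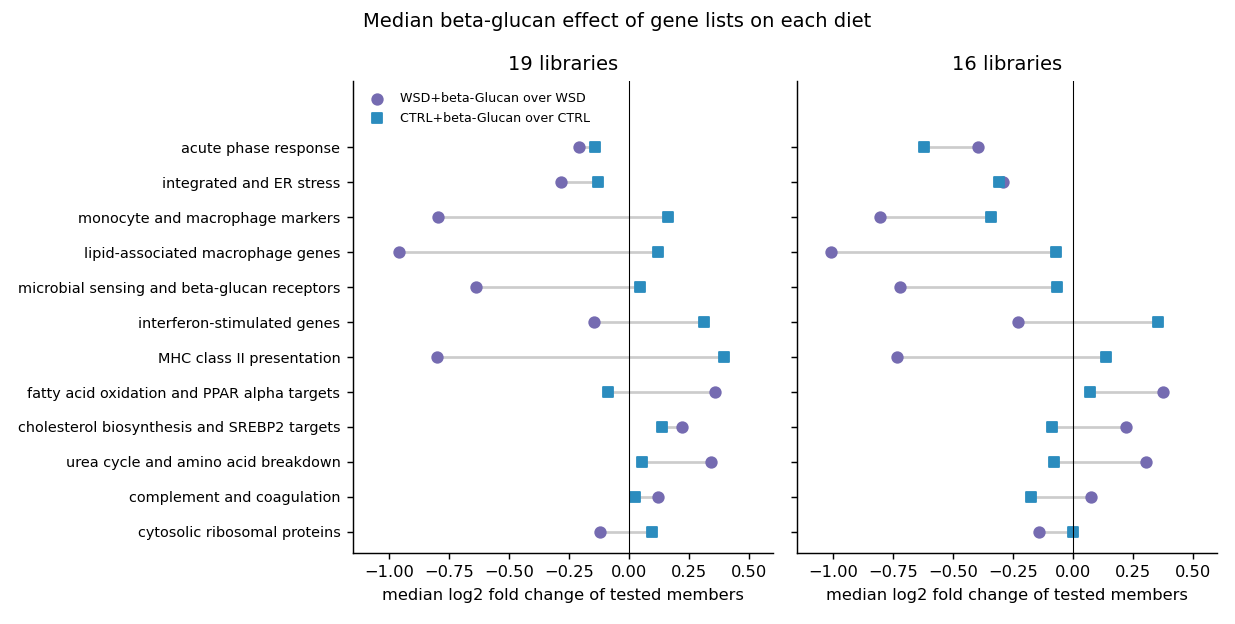
Median log2 fold change of the tested members of 12 gene lists on WSD (circles) and on CTRL (squares), with all 19 libraries (left) and with 16 (right). Without the 3 libraries the acute phase median on CTRL moves from -0.143 to -0.624 and that of monocyte and macrophage markers from 0.162 to -0.341, while interferon-stimulated genes stay on opposite sides of 0.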

How the data were processed

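Bulk liver RNA from 19 libraries (TruSeq stranded mRNA kit, per the labels' protocols) was quantified with Salmon 1.10.1 on build GRCm39, per the submitters' processing notes, which also name DESeq2 1.38.3 with no role. The transcript set and strand setting are not given in the sources used here. Each deposited table holds estimated counts per transcript (expected counts, not normalized by the authors), TPM (made by the authors' tool), and the deposited effective length (other unit, not used). Of 116546 transcripts, 115977 (99.51%) matched GENCODE M21 (GRCm38), and the other 569 were left out, with 0.0623% to 0.1095% of a library's reads. Counts were summed to 35498 genes and rounded. No coordinates on GRCm39 were used.

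Tests used edgeR 4.0.16 in R 4.3.3: filterByExpr on the 4 groups, TMM scaling, robust quasi-likelihood F tests and Benjamini-Hochberg adjustment over 13594 genes, with a threshold of 0.05. The additive model held diet and beta-glucan. A model of 4 group means, fitted to all libraries, gave the effect on each diet and their difference. An SE is the log2 fold change divided by the root of the F statistic. CPM are scaled by TMM library sizes, and log2 CPM had a prior count of 2. DESeq2 1.42.0 and limma 3.58.1 (voom) were alternatives, with another scaling, filters, designs and left-out libraries. The methods were tested on simulated data. Depth was 17253823 to 23450232 reads per library, which covers counting error only, as the labels name no molecular identifiers. No library pair held identical counts. Replicates are numbered in deposition order.

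Named genes are protein-coding, have an assigned symbol, the same sign on both diets and a mean of at least 2 CPM: up to 12 per direction past the additive test and, where fewer passed, up to 6 per direction with the smallest p, named as not past. A panel of liver, lipid and immune genes could also be quoted. Genes named outside this rule (Dlg3, Saa4, Orm1, Cyp2c70, Pdk4, Cpt1b, Hpx, Psat1, Epha2, Unc93b1, and members given within a list) were chosen after their values were seen. Members, lists and tests were chosen with earlier results of these data known.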

Additional observations from a re-analysis of the deposited data

Results flagged for a closer look

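Values far from the other libraries of their group were found by Dixon's test in 12 of 127 combinations of a quoted gene and a group; chance gives about 1 in 20. Of the beta-glucan libraries, CTRL+beta-Glucan replicate 1 was highest for Saa1 (1396 CPM, others up to 192), Lcn2 (108 CPM, others up to 30.9) and Ostc (27.1 CPM, others up to 22.4). CTRL+beta-Glucan replicate 2 was highest for Tm6sf2 (51.6 CPM, next 45.9) and Trem2 (1.12 CPM, next 0.433). WSD+beta-Glucan replicate 4 was lowest for Ccl2 (1.43 CPM, next 2.47). Without beta-glucan, CTRL replicate 3 was highest for Lcn2 (360 CPM, next 57.9), CTRL replicate 2 for Rcan1 (23 CPM, next 16.4) and Ccl2 (0.487 CPM, next 0.206), CTRL replicate 1 for Gpnmb (0.506 CPM, next 0.118), and WSD replicate 3 for Saa4 (330 CPM, next 236). CTRL replicate 4 held the 1 read of Sprr1a on CTRL (0.0591 CPM).

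Effects that differ between the diets by their own test were found for Unc93b1, at -0.76 (log2 fold change on WSD minus that on CTRL, edgeR adjusted p = 0.0366). Its level was 68.7 ± 3.96 CPM in WSD (SD) and 48.6 ± 4.64 CPM in WSD+beta-Glucan. In CTRL it was 29.2 ± 2.95 CPM and in CTRL+beta-Glucan 35.0 ± 2.32 CPM.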

How the results depend on the processing

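No paired analysis was possible because the labels give no replicate number, animal or litter that groups share. Over 28 alternatives, Elmo1 kept its sign (-0.81 to -0.71) and passed in 18, and Mmp12 kept its sign (-1.49 to -0.95) and passed in 21. DESeq2 gave 9 genes higher and 17 lower, 436 on WSD, 5 on CTRL and 139 for the difference between diets. limma-voom gave 5 higher, 57 lower and 406 on WSD. Without a filter on low counts the Spearman correlation of both effects was -0.0965, and with a mean of at least 2 CPM the Pearson correlation was -0.383. Without the libraries titled 37, 39 and 40, 0 genes were lower, 94 had the same and 46 the opposite direction, 5 passed on CTRL and 2 for the difference. There 68.1% of the genes called on WSD and 49.5% of all genes had the same sign, and the correlations were -0.0625 (Pearson) and 0.00289 (Spearman). A term for these 3 libraries gave 4 lower, 88 in the same and 52 in the opposite direction, 258 on WSD, 2 on CTRL and 2 for the difference, same-sign shares of 60.9% and 48.8%, and correlations of 0.0165 (Pearson) and -0.0209 (Spearman). The mean of both diets from group means gave 0 lower. Each diet on its own libraries gave 23 in the same direction, 418 on WSD, 0 on CTRL and 28.0% of the same sign. The causes were not tested.

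Leaving out 1 library at a time gave 0 to 1 genes higher, 0 to 4 lower, 717 to 1302 with an unadjusted p under 0.05, 24 to 54 in the same and 51 to 274 in the opposite direction, and 0 to 0 past the test of both diets. It gave 2 to 184 on WSD, 0 to 2 on CTRL, 0 to 81 for the difference, 21.7% to 100% of WSD calls and 38.1% to 46.8% of all genes with the same sign. The 100% came only from sets in which 2 genes were called on WSD. The correlations ran from -0.248 to -0.0168 (Pearson) and from -0.327 to -0.0874 (Spearman). Saa4, near 0, changed sign with RLE scaling (-0.0055), DESeq2 (-0.0050), limma-voom (-0.11), a mean of at least 2 CPM (-0.0029), without the 3 libraries (-0.52) and with a term for them (-0.52), and ran from -0.20 to 0.078 with 1 library left out. Cyp2c70 ran from -0.28 to 0.080. On CTRL, Elmo1 rested on 14 to 39 reads per library and Mmp12 on 5 to 21.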

Other observations

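With all 19 libraries, urea cycle and amino acid breakdown genes had medians of 0.339 on WSD and 0.054 on CTRL, with 15 of 24 of the same sign, against 42.5% of all genes, and 6 higher in the additive fit at an unadjusted p under 0.05. With the 16 libraries 8 of 24 had the same sign and 0 were higher. Fibrosis and extracellular matrix genes had medians of -0.586 and -0.0161, with 16 of 32 of the same sign and 11 lower in the additive fit. Without the 3 libraries titled 37, 39 and 40, 7 were lower, and the CTRL median was 0.118. The genes of the respiratory chain and ATP synthase had 0.0823 and 0.0567, with 17 of 24 of the same sign in either set.

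Psat1, an enzyme of serine synthesis, had an additive log2 fold change of -1.01 ± 0.26 (SE), with -1.11 on WSD and -0.83 on CTRL and an edgeR adjusted p of 0.396. It held 1.44 to 2.28 CPM in WSD and 0.494 to 1.21 CPM in WSD+beta-Glucan, which did not overlap. In CTRL it held 0.122 to 0.619 CPM and in CTRL+beta-Glucan 0.12 to 0.496 CPM, which did.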
